A study of Mus musculus with 10 samples.

Results

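The 9 genes described here belong to the aryl hydrocarbon receptor (AhR) and to the breakdown of tryptophan, and they were picked by symbol from the 56691 genes of the deposited table. They are the receptor gene *Ahr*, its repressor gene *Ahrr*, the AhR target genes *Cyp1a1*, *Cyp1b1* and *Tiparp*, the tryptophan enzyme genes *Ido1*, *Kynu* and *Kmo*, and *Gpr35*, which encodes a receptor for the tryptophan product kynurenic acid. RNA from colon was sequenced in 5 male C57/BL6 mice given dextran sulfate sodium (DSS group) and in 5 given DSS and then chick early amniotic fluid (ceAF group), to find genes whose expression differs with the treatment. All of these mice, 8 weeks old, had drinking water with 3% DSS, which injures the colon epithelium, for 7 days. In the ceAF group a gavage of 15 mL/kg ceAF followed for 10 days, and what the DSS group received in those days is not given in the sources used here. Untreated mice and mice given mesalazine were not analysed here, so no value below says how the genes stand in healthy colon. The labels name neither litter, cage nor batch, and p-values measure only the spread between these samples.

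AhR is a transcription factor that is held in the cytoplasm by heat shock proteins until it binds a ligand, such as a pollutant, a plant indole or a product of tryptophan. In the nucleus it pairs with ARNT and binds the xenobiotic response element of its target genes, which include detoxifying cytochromes and its own repressor. Host enzymes turn tryptophan into kynurenine and its derivatives, gut microbes turn it into indoles, and AhR is known for its role in immunity at the gut barrier.

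Libraries held 14676471 to 19901549 reads on genes. Levels in single mice are given below as TMM-scaled CPM, the count relative to library size, and levels of different genes are compared only as FPKM, which also divides by exonic length. Each library held epithelial RNA: the summed level of 7 epithelial markers lay between 9340 and 14580 CPM. *Krt8* was the most abundant of them with a mean of 2178 FPKM, and 0 of the 7 were at 0 in all mice. These markers do not tell colon from other gut epithelium. The 6 small intestine markers, led by *Mep1a* at 70.3 FPKM, summed to 106 to 565 CPM. Of the 4 tested, 3 were lower in the ceAF group and 1 was higher, 0 at an unadjusted p under 0.05. *Fabp6* was at 45.8 CPM in DSS-2, against 0.716 to 16.4 CPM in the other mice. *Sis* was at 14.3 CPM in DSS-2 and 14.2 CPM in ceAF-1, against 0.055 to 4.11 CPM in the other mice. Certain libraries stood apart. In ceAF-1 the 6 *Hox* genes of the distal colon summed to 22.7 CPM, against 98.7 to 449 CPM in the other mice, with *Hoxb13* the most abundant at a mean of 52.4 FPKM. The sum was 98.7 CPM in ceAF-4, where *Hoxb13* was low as well. *Hoxb13* stood at 6.18 CPM in ceAF-1 and 10.2 CPM in ceAF-4, against 76.3 to 215 CPM in the other mice. Of the 5 tested genes of the distal *Hox* list, 3 were higher in the ceAF group, 1 of them at an unadjusted p under 0.05. In DSS-1 the 6 neutrophil markers summed to 1595 CPM, against 1.68 to 175 CPM in the other mice, led by *S100a9* with a mean of 165 FPKM. All 5 tested neutrophil markers were lower in the ceAF group at an unadjusted p under 0.05, but this count was 1 without DSS-1, 2 with DESeq2, 0 with voom, 0 with the replicate block, and 1 and 2 on FPKM with pseudocounts of 1 and 0.1. The mitochondrial genes held 9.66%, 7.24% and 9.74% of the reads in ceAF-1, ceAF-4 and ceAF-5, and 4.53% to 6.54% in the other mice. In DSS-5 the 8 T-cell markers summed to 21.7 CPM, against 47.3 to 87.2 CPM in the other DSS mice. The part of tissue make-up in the results below was not tested.

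In 7 of the 9 genes the counts were high enough to be tested, and *Cyp1a1* and *Cyp1b1* fell below the filter on low counts. None of the 7 passed the test. At an adjusted p under 0.05 in edgeR's quasi-likelihood test (Benjamini-Hochberg), 0 of the 7 passed, as did 0% of the 16545 genes tested, while DESeq2 called 28 genes, 0 of them among these 7. At an unadjusted p under 0.05 the quasi-likelihood test again gave 0 of the 7, where 6.93% of the genes tested passed, 3.67% lower and 3.26% higher in the ceAF group. These shares stand for 607 lower and 539 higher genes, and with limma on log2(FPKM + 1) the split was 701 lower and 308 higher. The unadjusted count of 1146 genes was 712 without DSS-1 and 1872 without ceAF-1. Of the 7 genes 4 were lower in the ceAF group at any p, against 48.6% of the genes tested, and their median log2 fold change was −0.045 against 0.0076 for the genes tested. In 0 of the 9 genes were the mice of the groups fully separated, which held for 1.24% of the genes tested.

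**Figure D1:**
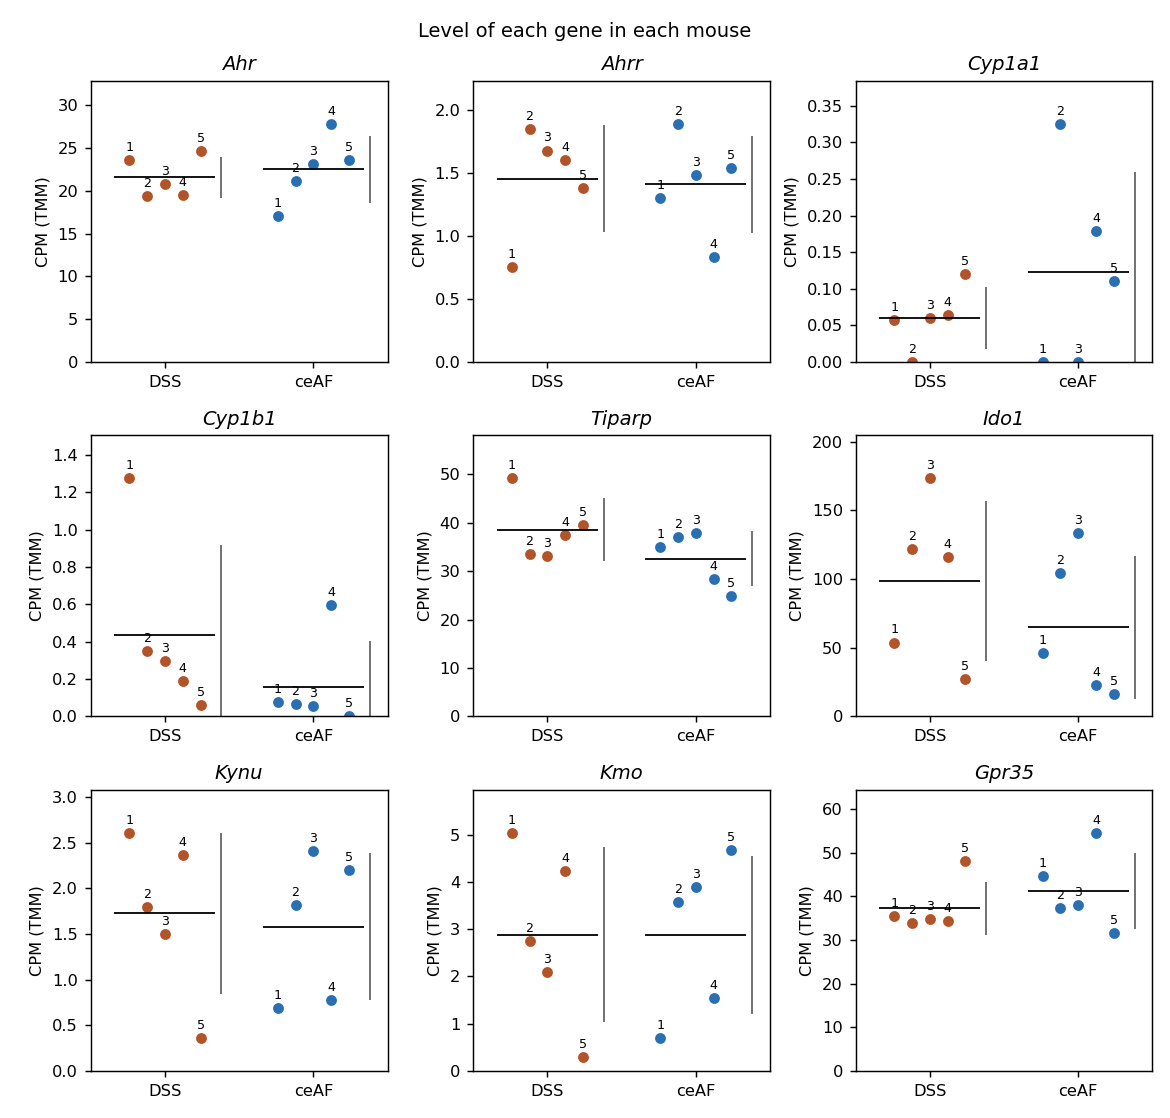
TMM-scaled CPM (vertical axes, linear from 0, a scale of its own for each gene) of the 9 genes in the 5 DSS and 5 ceAF mice. Points are mice with their number, horizontal lines are group means, and grey bars are mean ± SD with the lower end drawn no further than 0; the groups overlap in each panel, and DSS-5, ceAF-1 and ceAF-4 lie low in both *Kynu* and *Kmo*.

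*Ahr* (ENSMUSG00000019256, chromosome 12, 35547973 to 35585037, reverse strand) differed little between mice. It stood at 23.6, 19.3, 20.8, 19.5 and 24.6 CPM in DSS-1 to DSS-5 and at 17.0, 21.1, 23.1, 27.8 and 23.5 CPM in ceAF-1 to ceAF-5. The groups overlapped, and the ceAF group held both the lowest mouse, ceAF-1, and the highest, ceAF-4, which were 1.63-fold apart. Group means were 21.6 ± 2.41 CPM under DSS and 22.5 ± 3.93 CPM with ceAF (SD, n = 5 each). The log2 fold change was 0.06 (standard error 0.139) with a 95% interval of −0.24 to 0.37, an unadjusted p of 0.655 and an adjusted p of 0.959 in edgeR's quasi-likelihood test (Benjamini-Hochberg). An exact two-sided permutation test over the 252 assignments of 5 of the 10 mice gave p = 0.722. Without ceAF-4 the log2 fold change was −0.013, so its sign rested on that mouse.

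*Ahrr* (ENSMUSG00000021575, chromosome 13, 74359237 to 74440450, reverse strand) encodes a repressor that competes with AhR for ARNT and is itself an AhR target. Its level was low, with 13 to 37 counts per mouse. It was 0.753, 1.85, 1.68, 1.60 and 1.38 CPM in DSS-1 to DSS-5 and 1.30, 1.89, 1.48, 0.835 and 1.54 CPM in ceAF-1 to ceAF-5. DSS-1 and ceAF-4 were the low mice, so each group had a low one and the ranges overlapped. The means were 1.45 ± 0.425 and 1.41 ± 0.385 CPM (SD, n = 5 each). A log2 fold change of −0.045 (standard error 0.294, 95% interval −0.69 to 0.60) came with an unadjusted p of 0.880, an adjusted p of 0.986 in edgeR's quasi-likelihood test (Benjamini-Hochberg), and p = 0.889 in the exact permutation test. The sign turned without DSS-2, DSS-3 or ceAF-4.

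*Tiparp* (ENSMUSG00000034640, chromosome 3, 65435831 to 65462939, forward strand) encodes a member of the poly(ADP-ribose) polymerase family that AhR induces and that limits AhR in turn. It was the only target gene of the 3 to be tested. Its levels were 49.1, 33.6, 33.2, 37.5 and 39.4 CPM in DSS-1 to DSS-5 and 35.0, 37.0, 37.8, 28.3 and 24.8 CPM in ceAF-1 to ceAF-5. DSS-1 was the highest mouse, ceAF-4 and ceAF-5 were the lowest, and the other ceAF mice lay within the DSS range. The means were 38.6 ± 6.47 and 32.6 ± 5.73 CPM (SD, n = 5 each). Fitted, the log2 fold change was −0.24 (standard error 0.150, 95% interval −0.57 to 0.09), with an unadjusted p of 0.134 and an adjusted p of 0.773 in edgeR's quasi-likelihood test (Benjamini-Hochberg). The exact permutation test gave p = 0.183. Without DSS-1 the log2 fold change was −0.14, and with voom it was −0.061 at an unadjusted p of 0.641.

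*Cyp1a1* (ENSMUSG00000032315, chromosome 9, 57595211 to 57611107, forward strand) encodes a cytochrome P450 that clears AhR ligands and is the classic AhR target in gut epithelium. It was close to undetected in every colon. Its counts were 1, 0, 1, 1 and 2 in DSS-1 to DSS-5 and 0, 5, 0, 3 and 2 in ceAF-1 to ceAF-5. The sums were 5 and 10 counts, a count of 0 occurred in both groups, and a difference was not detectable at this depth. Fitted without the filter, the log2 fold change was 0.98 (standard error 0.969) with a 95% interval of −1.10 to 3.05 and an unadjusted p of 0.330, and the exact permutation test gave p = 0.635. It was 0.31 without ceAF-2 and 1.35 without DSS-5, and on FPKM with pseudocounts of 1 and 0.1 it was 0.035 and 0.22.

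*Cyp1b1* (ENSMUSG00000024087, chromosome 17, 80008966 to 80022490, reverse strand) encodes a related cytochrome, best known from mesenchymal cells. Its counts were 22, 7, 5, 3 and 1 in DSS-1 to DSS-5 and 1, 1, 1, 10 and 0 in ceAF-1 to ceAF-5, or 38 and 13 in sum. In each group 1 mouse supplied most of the counts, DSS-1 and ceAF-4, and the ranges overlapped. The unfiltered log2 fold change was −1.39 (standard error 0.893, 95% interval −3.31 to 0.52) with an unadjusted p of 0.140, and the exact permutation test gave p = 0.143. It was −0.50 without DSS-1 and −3.02 without ceAF-4, the latter with an unadjusted p of 0.00727. With voom it was −1.62 at an unadjusted p of 0.0352, and on FPKM with pseudocounts of 1 and 0.1 it was −0.063 and −0.40.

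The mice that led in *Cyp1b1* also led in the sums of 2 stromal lists and of the enteric nervous system markers. The 7 fibroblast markers summed to 1096 CPM in DSS-1 and 832 CPM in ceAF-4, against 175 to 670 CPM in the other mice, with *Col3a1* the most abundant at a mean of 23.3 FPKM. The 6 endothelial markers, led by *Pecam1* at 4.05 FPKM, summed to 119 and 117 CPM in these mice and to 32.4 to 81.9 CPM in the others. The 6 enteric nervous system markers, with *Uchl1* the most abundant at 4.97 FPKM, summed to 81.3 CPM in DSS-1 and 70.2 CPM in ceAF-4. In the other mice they summed to 24.9 to 45.4 CPM. *Ret* supplied 58.1 CPM of the sum in ceAF-4. Of these 6 markers 5 were lower in the ceAF group and 1 was higher, 0 at an unadjusted p under 0.05, and 0 were at 0 in all mice. All 7 fibroblast and all 6 endothelial markers were lower in the ceAF group, 0 of either at an unadjusted p under 0.05, and 0 of either list were at 0 in all mice. Without ceAF-4, 4 of the 6 endothelial markers were under that limit, as was 1 of the 7 fibroblast markers without DSS-4, DSS-5 or ceAF-4, with DESeq2 or without a filter. Not every stromal gene ran this way. *Dcn*, of the fibroblast list, was at 94.98 CPM in ceAF-4, below the 128 CPM of ceAF-2 and the 122 CPM of ceAF-5. The 6 smooth muscle markers summed to 2368, 2105, 1487, 1278 and 2709 CPM in DSS-1 to DSS-5 and to 1207, 2875, 1150, 1407 and 2282 CPM in ceAF-1 to ceAF-5, so neither DSS-1 nor ceAF-4 led in them. All 6, with *Actg2* the most abundant at 204 FPKM and 0 at 0 in all mice, were lower in the ceAF group, 0 at an unadjusted p under 0.05. The part of stromal or enteric nerve cells in the level of *Cyp1b1* was not tested. In bulk tissue, fewer cells of a type and less RNA per cell cannot be told apart.

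The promoters of the AhR target genes are printed to show where the core letters of the xenobiotic response element occur in them. RefSeq promoters of GRCm38.p6 matched 6 of the 9 genes, and the 250 bases before the start of transcription were searched on both strands for the core of this element, GCGTG. It occurred in the promoters of 4 genes, 3 times in *Ahrr* and 1 time each in *Cyp1a1*, *Cyp1b1* and *Tiparp*, and had no match in those of *Kmo* and *Gpr35*. Of all 32851 promoters of this length 28.2% held it, so a match is common and describes letters, not a bound site. The sequences run 5′ to 3′ on the strand of the gene, *Ahrr* at chr13:74292332-74292581, reverse strand, *Cyp1a1* at chr9:57697363-57697612, forward strand, *Cyp1b1* at chr17:79715062-79715311, reverse strand, and *Tiparp* at chr3:65528197-65528446, forward strand. Capitals mark the core, written CACGC where it lies on the other strand.
Ahrr: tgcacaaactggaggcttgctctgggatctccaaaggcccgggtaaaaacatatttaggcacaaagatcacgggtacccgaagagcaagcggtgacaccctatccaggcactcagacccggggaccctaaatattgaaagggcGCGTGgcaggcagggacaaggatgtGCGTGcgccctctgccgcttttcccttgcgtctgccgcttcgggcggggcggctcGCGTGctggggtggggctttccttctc
Cyp1a1: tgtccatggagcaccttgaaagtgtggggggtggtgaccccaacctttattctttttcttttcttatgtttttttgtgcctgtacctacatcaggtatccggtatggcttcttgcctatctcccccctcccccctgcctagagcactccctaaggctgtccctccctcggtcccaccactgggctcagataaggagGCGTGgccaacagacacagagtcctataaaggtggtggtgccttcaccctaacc
Cyp1b1: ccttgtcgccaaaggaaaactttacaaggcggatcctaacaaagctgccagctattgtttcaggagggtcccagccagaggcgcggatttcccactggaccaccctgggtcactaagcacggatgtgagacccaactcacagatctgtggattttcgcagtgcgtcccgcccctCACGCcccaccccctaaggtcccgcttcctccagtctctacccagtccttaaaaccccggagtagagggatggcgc
Tiparp: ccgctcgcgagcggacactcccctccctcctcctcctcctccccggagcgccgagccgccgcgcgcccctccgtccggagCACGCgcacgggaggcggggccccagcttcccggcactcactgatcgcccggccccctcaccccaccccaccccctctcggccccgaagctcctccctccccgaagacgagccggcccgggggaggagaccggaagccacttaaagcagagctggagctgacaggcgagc
In *Cyp1a1* the core began 54 bases before the start of transcription, in *Cyp1b1* 76 and in *Tiparp* 170 bases before it, and in *Ahrr* the outermost began 107 and the innermost 27 bases before it. Genes with the core thus ranged from *Tiparp*, well expressed in each mouse, to *Cyp1a1*, with at most 5 counts.

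*Ido1* (ENSMUSG00000031551, chromosome 8, 25074152 to 25087025, reverse strand) encodes the enzyme that opens tryptophan on the way to kynurenine and is induced by interferon gamma. It varied widely between mice of the same group. Its levels were 53.8, 122, 173, 116 and 27.0 CPM in DSS-1 to DSS-5 and 46.5, 105, 134, 23.0 and 16.7 CPM in ceAF-1 to ceAF-5. DSS-2, DSS-3, DSS-4, ceAF-2 and ceAF-3 were at 105 CPM or above and the other mice at 53.8 CPM or below, so each group held high and low mice. The spread was 6.44-fold among DSS mice and 8.03-fold among ceAF mice. The means were 98.5 ± 58.3 and 64.9 ± 51.8 CPM (SD, n = 5 each). The log2 fold change was −0.60 (standard error 0.617), and its 95% interval of −1.96 to 0.76 takes in both a large decrease and an increase. Its unadjusted p was 0.350 and the adjusted p 0.891 in edgeR's quasi-likelihood test (Benjamini-Hochberg), and the exact permutation test gave p = 0.302. Leaving out a mouse moved the log2 fold change between −1.05, without ceAF-3, and −0.29, without DSS-3. The 4 *Hox* genes of the proximal colon, set beside *Ido1* after the values were seen, summed to 24.6, 67.0, 83.9, 69.2 and 24.2 CPM in DSS-1 to DSS-5 and to 165, 16.2, 47.4, 35.7 and 25.7 CPM in ceAF-1 to ceAF-5. *Hoxa5* was the most abundant of them at a mean of 10.1 FPKM, 0 were at 0 in all mice, and with ceAF 2 of the 4 tested were lower, 2 were higher and 0 were at an unadjusted p under 0.05. *Hoxb6* was at 17.4 to 91.0 CPM in DSS-2, DSS-3, DSS-4, ceAF-1 and ceAF-3, of which all but ceAF-1 were high in *Ido1*, and at 0.846 to 2.98 CPM in the other mice, which include ceAF-2, also high in *Ido1*. *Hoxb7* and *Hoxb8* split the mice in the same way, with 6.31 to 29.2 and 7.62 to 37.9 CPM against 0.420 to 1.73 and 0.6002 to 1.43 CPM. *Hoxa5* departed from them and was lowest in ceAF-1 at 6.79 CPM and DSS-3 at 13.0 CPM and highest in ceAF-4 at 29.6 CPM. By the mean absolute difference of centred log2 CPM per mouse the list's sum was 10th of 26 in likeness to *Ido1*, at 0.989. The interferon gamma list came nearest at 0.758. This measure also counts how widely a sum varies, and the epithelium sum, at 9340 to 14580 CPM, was 6th at 0.921. The proximal sum also holds *Hoxa5*, so these ranks do not weigh colon region against interferon. The part of colon region in the level of *Ido1* was not tested.

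*Kynu* (ENSMUSG00000026866, chromosome 2, 43445341 to 43572734, forward strand) encodes kynureninase, which splits kynurenine and its hydroxylated form. With 6 to 45 counts per mouse it stood at 2.61, 1.80, 1.50, 2.37 and 0.360 CPM in DSS-1 to DSS-5 and at 0.687, 1.82, 2.41, 0.776 and 2.199 CPM in ceAF-1 to ceAF-5. DSS-5, ceAF-1 and ceAF-4 were low, the other mice were at 1.50 CPM or above, and the groups overlapped. The means were 1.73 ± 0.883 and 1.58 ± 0.803 CPM (SD, n = 5 each). A log2 fold change of −0.12 (standard error 0.496, 95% interval −1.21 to 0.97) had an unadjusted p of 0.817, an adjusted p of 0.981 in edgeR's quasi-likelihood test (Benjamini-Hochberg), and p = 0.937 in the exact permutation test. Its sign turned without DSS-1, DSS-4, ceAF-1 or ceAF-4, and it was −0.36 without DSS-5.

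*Kmo* (ENSMUSG00000039783, chromosome 1, 175447947 to 175489682, forward strand) encodes kynurenine 3-monooxygenase, which makes that hydroxylated form. Its levels were 5.04, 2.75, 2.10, 4.23 and 0.300 CPM in DSS-1 to DSS-5 and 0.687, 3.58, 3.89, 1.55 and 4.67 CPM in ceAF-1 to ceAF-5. The same 3 mice as for *Kynu* were low, DSS-5, ceAF-1 and ceAF-4, and the spread from DSS-5 to DSS-1 was 16.8-fold. The means were 2.88 ± 1.86 and 2.88 ± 1.68 CPM (SD, n = 5 each). A log2 fold change of 0.0056 (standard error 0.623, 95% interval −1.37 to 1.38) had an unadjusted p of 0.993, an adjusted p of 0.999 in edgeR's quasi-likelihood test (Benjamini-Hochberg), and p = 0.833 in the exact permutation test. Leaving out DSS-3, DSS-5, ceAF-2, ceAF-3 or ceAF-5 turned the sign. The start of *Kmo* overlaps *Fh1*, a gene on the opposite strand from 175427940 to 175453201, and whether strand was used in counting is not given in the sources used here. *Fh1* had 793 to 1581 counts per mouse: 793 in DSS-1 and 1208 in DSS-5, where *Kmo* had 87 and 5, but 1251 in ceAF-3 and 1581 in ceAF-5, where *Kmo* had 71 and 85. The part of *Fh1* reads in the counts of *Kmo* was not tested.

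*Gpr35* (ENSMUSG00000026271, chromosome 1, 92878587 to 92914113, forward strand) was at similar levels in most mice. It stood at 35.5, 33.8, 34.7, 34.4 and 48.1 CPM in DSS-1 to DSS-5 and at 44.7, 37.3, 38.0, 54.5 and 31.6 CPM in ceAF-1 to ceAF-5. DSS-5 was set off from the other DSS mice, ceAF-4 was the highest of all and ceAF-5 the lowest, and the groups overlapped. The means were 37.3 ± 6.06 and 41.2 ± 8.79 CPM (SD, n = 5 each). The log2 fold change was 0.14 (standard error 0.157, 95% interval −0.20 to 0.49), with an unadjusted p of 0.381 and an adjusted p of 0.902 in edgeR's quasi-likelihood test (Benjamini-Hochberg). The exact permutation test gave p = 0.437, and the log2 fold change was 0.27 without DSS-5 and 0.030 without ceAF-4.

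**Figure D2:**
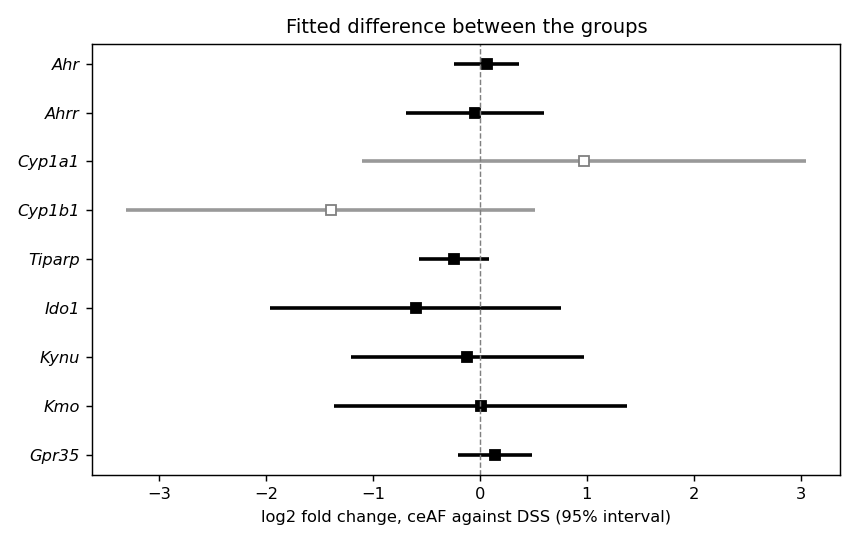
Log2 fold change, ceAF against DSS, of the 9 genes (squares) with 95% intervals (lines) from edgeR's quasi-likelihood fit on 5 mice per group. Open squares with grey lines are *Cyp1a1* and *Cyp1b1*, fitted without the filter on low counts; each interval includes 0, and the interval is narrowest for *Ahr* (−0.24 to 0.37).

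The intervals differed in width with the spread between mice. The standard deviation of log2 CPM within groups was 0.215 for *Ahr*, 0.248 for *Tiparp* and 0.259 for *Gpr35*, larger than in 27.7%, 35.2% and 37.6% of the genes tested. For *Ido1* it was 1.20, for *Kmo* 1.34 and for *Kynu* 0.958, larger than in 96.3%, 97.3% and 93.3% of the genes tested, and *Ahrr* lay between with 0.455. A change of 2-fold in either direction thus lies outside the 95% intervals of *Ahr*, *Ahrr*, *Tiparp* and *Gpr35*, and a decrease of that size lies inside those of *Ido1*, *Kynu* and *Kmo*. For *Kmo*, with an interval of −1.37 to 1.38, an increase of that size lies inside as well.

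By mean FPKM over the 10 mice *Ido1* was the most abundant of the genes at 44.4 ± 30.1 FPKM, above 93.0% of the genes tested. *Tiparp* at 8.15 ± 1.54 and *Gpr35* at 8.10 ± 1.60 FPKM followed and did not differ beyond their spread, since *Tiparp* was the higher in 6 of 10 mice. *Ahr* stood at 3.59 ± 0.639 FPKM, below *Gpr35* in 10 of 10 mice. *Kmo* at 0.614 ± 0.363 FPKM was above *Kynu* at 0.269 ± 0.132 FPKM in 9 of 10 mice, and *Kynu* above *Ahrr* at 0.150 ± 0.0419 FPKM in 8 of 10, with overlapping spreads (SD, n = 10). *Cyp1b1* at 0.052 and *Cyp1a1* at 0.033 FPKM came last and could not be ordered. In FPKM, *Ido1* was above *Tiparp* in 10 of 10 mice, although its lowest mouse had 9.70 FPKM and the highest mouse of *Tiparp* 11.7 FPKM.

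For the genes whose log2 CPM spanned at least 2 over the 10 mice, the genes of most similar pattern were sought by the mean absolute difference of log2 CPM per mouse, each gene centred on its own mean. For *Ido1* these were *Cxcl9* at a difference of 0.274, *Gbp2* at 0.312 and *Gbp4* at 0.324. *Cxcl9* encodes a chemokine and the *Gbp* genes guanylate-binding proteins, all known as interferon-induced. *Cxcl9* was at 35.2, 58.5, 57.2, 68.6 and 17.5 CPM in DSS-1 to DSS-5 and at 29.1, 69.9, 58.9, 13.1 and 13.1 CPM in ceAF-1 to ceAF-5. As in *Ido1*, DSS-2, DSS-3, DSS-4, ceAF-2 and ceAF-3 were the high mice. The nearest to *Kynu* were *Mndal* (0.253), *Scimp* (0.271) and *Pik3cg* (0.273), genes known from leukocytes, and the nearest to *Kmo* were *Kynu* (0.331), *Susd3* (0.398) and *Nebl* (0.415). *Mndal* was at 35.6, 24.1, 24.6, 26.3 and 8.22 CPM in DSS-1 to DSS-5 and at 13.7, 21.9, 34.0, 9.31 and 22.8 CPM in ceAF-1 to ceAF-5. It was low in DSS-5, ceAF-1 and ceAF-4, the low mice of *Kynu* and *Kmo*.

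**Figure D3:**
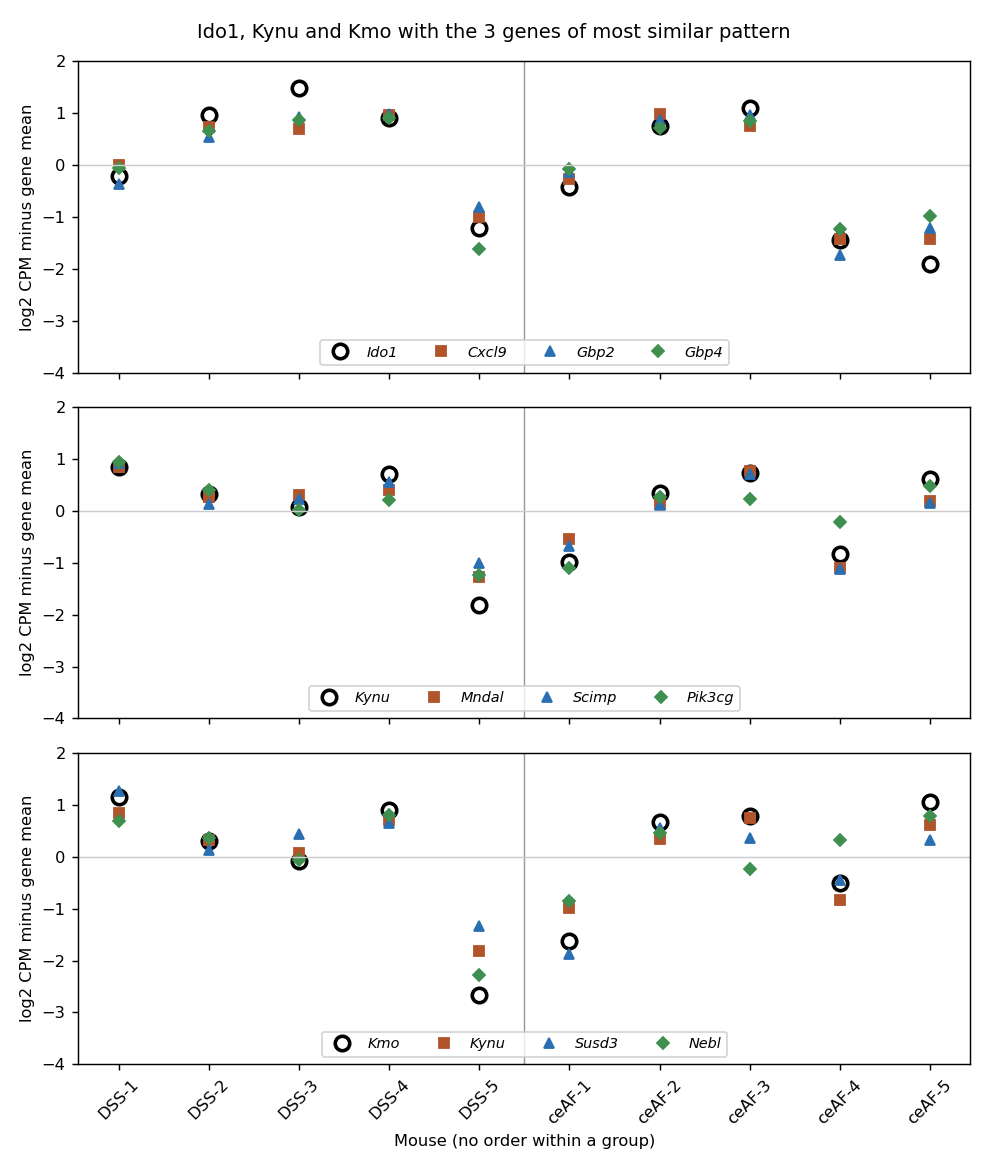
Centred log2 CPM (vertical axis, log2 scale, 0 is the mean of the gene over the 10 mice) of *Ido1*, *Kynu* and *Kmo* (open circles) and of the 3 genes of most similar pattern to each (filled symbols) in the 10 mice, with a vertical line between DSS and ceAF mice. *Ido1* and its neighbors are high in DSS-2, DSS-3, DSS-4, ceAF-2 and ceAF-3, while *Kynu* and *Kmo* are low in DSS-5, ceAF-1 and ceAF-4.

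The patterns of *Ido1* and of the later enzymes agreed in certain mice only. The low mice of *Kynu* and *Kmo*, DSS-5, ceAF-1 and ceAF-4, were low in *Ido1* as well, at 27.0, 46.5 and 23.0 CPM, and the 5 high mice of *Ido1* were low in neither. *Kynu* and *Kmo* differed from each other by 0.331 per mouse on this measure, and from *Ido1* by 0.835 and 1.05. In ceAF-5 *Ido1* had its lowest level, 16.7 CPM, while *Kmo* was at 4.67 and *Kynu* at 2.199 CPM, near their highest. In DSS-1 as well *Ido1* was below its group's mean while *Kmo* and *Kynu* were at their highest. The difference between these patterns was not tested.

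The low mice of *Kynu* and *Kmo* were low in the sums of dendritic cell and T-cell markers too. The 7 dendritic cell markers summed to 36.5, 34.8, 31.6, 40.2 and 13.8 CPM in DSS-1 to DSS-5 and to 11.1, 27.9, 30.1, 15.8 and 33.6 CPM in ceAF-1 to ceAF-5. DSS-5, ceAF-1 and ceAF-4 were thus the low mice here as well. Of 26 lists compared after the values were seen, the dendritic cell sum had the smallest difference from both, 0.293 for *Kynu* and 0.555 for *Kmo*. The next were the T-cell sum, at 0.419 from *Kynu* and 0.688 from *Kmo*, and the macrophage sum, at 0.531 and 0.674. The T-cell sum had the same lowest mice, with 18.2 CPM in ceAF-4, 18.4 CPM in ceAF-1 and 21.7 CPM in DSS-5. Single markers departed from the sums. *Zbtb46*, of the dendritic cell list, was lowest in DSS-3 at 1.62 CPM. *Ccr7*, of the same list, was at 1.50 CPM in DSS-5, above DSS-2 (1.25), DSS-3 (0.958), ceAF-2 (1.37) and ceAF-5 (1.26). *Il7r*, of the T-cell list, was at 4.95 CPM in ceAF-4, above the 4.10 CPM of DSS-2. Of the 7 dendritic cell markers *Itgax* was the most abundant at a mean of 3.66 FPKM, 0 were at 0 in all mice, and all 6 tested were lower in the ceAF group, 0 of them at an unadjusted p under 0.05. Without DSS-5, 2 were under that limit, and without ceAF-3 or with voom, 1. The 7 macrophage markers, led by *Lyz2* at 80.7 FPKM, summed to 366 CPM in DSS-1, 68.2 CPM in ceAF-1 and 146 to 208 CPM in the other mice, so that DSS-5 at 180 CPM was not low in them. All 7 were lower in the ceAF group, 1 at an unadjusted p under 0.05, which became 0 with voom, with the replicate block, or without DSS-1, DSS-2, DSS-3, ceAF-1, ceAF-4 or ceAF-5, and 0 were at 0 in all mice. The part of these cells in the levels of *Kynu* and *Kmo* was not tested.

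Around the 9 genes, 57 others of the same pathways were in the table and 47 were tested. At an unadjusted p under 0.05 in the quasi-likelihood test 1 was lower and 0 were higher, against 3.67% and 3.26% of the genes tested, and 23 of the 47 were lower at any p (median 0.0072 on the log2 scale). The count of 1 became 5 without ceAF-1, 3 without DSS-2, DSS-4 or ceAF-2, and 2 without DSS-1, DSS-3, DSS-5 or ceAF-3. Over all genes the count of 1146 became 1872 of 16784 without ceAF-1. It was 1058, 953 and 1186 without DSS-2, DSS-4 and ceAF-2. Without DSS-1, DSS-3, DSS-5 and ceAF-3 it was 712, 1033, 1609 and 1111. Each of these fits tested 16713 to 16815 genes. Leaving out both DSS-1 and ceAF-1, an alternative chosen after seeing the data, gave 6 for the pathway genes and 0 for the 7 tested members. Over all genes it gave 1449 of the 16546 tested.

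In the receptor complex, 0 of 8 tested genes passed in either direction, around a median of 0.0041 on the log2 scale (−0.015 to 0.070 with a mouse left out). Its most abundant genes were *Hsp90ab1* at 274 FPKM and *Ptges3* at 50.7 FPKM, a chaperone and a cochaperone that hold the receptor. Of 12 other AhR target genes 8 were tested, of which 0 passed, 6 were higher and 2 lower in the ceAF group, the median being 0.24 on the log2 scale. This split rested on ceAF-1, without which 4 were higher and 4 lower with a median of −0.011, and voom gave the same split with a median of −0.051. The 12 genes summed to 1314 CPM in ceAF-1, against 613 to 1083 CPM in the other mice. The most abundant were *Nfe2l2*, which encodes the antioxidant regulator NRF2, at 61.2 FPKM and *Xdh*, which encodes xanthine dehydrogenase, at 37.5 FPKM. *Nqo1*, a quinone reductase gene that NRF2 also induces, was singled out after its values were seen. It was at 33.8, 56.2, 48.1, 63.8 and 20.1 CPM in DSS-1 to DSS-5 and at 87.5, 43.8, 54.3, 72.8 and 91.0 CPM in ceAF-1 to ceAF-5. Although ceAF-1, ceAF-4 and ceAF-5 lay above all DSS mice, the groups overlapped. These 3 mice also had the highest shares of mitochondrial reads, whose part in the level of *Nqo1* was not tested. Its log2 fold change was 0.65 (standard error 0.303), with an unadjusted p of 0.0538 and an adjusted p of 0.720 in edgeR's quasi-likelihood test (Benjamini-Hochberg), and the exact permutation test gave p = 0.0794. Over the alternatives tried, its log2 fold change lay between 0.18, with voom, and 0.82, without DSS-4, and its unadjusted p between 0.0240 and 0.476. *Il22*, a cytokine gene of innate lymphoid cells named for the same reason, was too low to be tested, with 32 counts in DSS-5 and 0 to 8 in the other mice.

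Of the other enzymes from tryptophan to kynurenine, 2 of 3 were tested and 0 passed. *Afmid*, the formamidase gene, had 1.8 FPKM and *Ido2*, a paralog of *Ido1*, 0.226 FPKM. In the branches that use kynurenine 4 of 7 were tested and 0 passed, and the aminotransferase genes *Kyat1* at 16.3 FPKM and *Got2* at 12.8 FPKM led. *Aadat*, a further aminotransferase gene, had 0 counts in all 10 mice, which allows up to 0.229 CPM in the shallowest library, a limit for counting error only. Of 8 genes for other uses of tryptophan 6 were tested, 0 passed and 5 of the 6 were higher in the ceAF group (4 without ceAF-1), the median being 0.25 on the log2 scale and 0.15 to 0.40 with a mouse left out. *Maoa*, the monoamine oxidase gene, was at 212 FPKM and *Wars*, which encodes the enzyme that charges tRNA with tryptophan, at 53.7 FPKM. Of the 7 transport genes 7 were tested, 0 passed, 6 were lower (4 to 6 with a mouse left out) and the median was −0.08 (−0.24 to −0.060). With voom 5 were lower around a median of −0.363. All 7 were lower with the replicate block (median −0.163) and on FPKM with pseudocounts of 1 and 0.1 (−0.101 and −0.183). *Slc3a2*, the heavy chain of amino acid carriers, led with 15.9 FPKM.

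In the interferon gamma list 12 of 12 genes were tested, 8 of them lower in the ceAF group, and the list's median was −0.24 on the log2 scale. With a mouse left out 7 to 10 were lower and the median was −0.37 to −0.067. On FPKM with pseudocounts of 1 and 0.1, 11 were lower and 1 was higher with each, around medians of −0.185 and −0.213. The receptor gene *Ifngr1* at 146 FPKM and the transcription factor gene *Irf1* at 72.9 FPKM were the most abundant. *Ifng* (ENSMUSG00000055170), which encodes interferon gamma, was the gene under the unadjusted limit. It was at 2.26, 3.50, 3.17, 4.74 and 1.08 CPM in DSS-1 to DSS-5 and at 0.839, 1.69, 0.823, 0.119 and 0.440 CPM in ceAF-1 to ceAF-5. These levels rest on 39, 70, 53, 74 and 18 counts in DSS-1 to DSS-5 and 11, 26, 15, 2 and 8 counts in ceAF-1 to ceAF-5. ceAF-2 lay above DSS-5, the lowest DSS mouse, and the other ceAF mice lay below all DSS mice. The means were 2.95 ± 1.37 and 0.783 ± 0.589 CPM (SD, n = 5 each). A log2 fold change of −1.92 (standard error 0.555) came with an unadjusted p of 0.00538 and an adjusted p of 0.656 in edgeR's quasi-likelihood test (Benjamini-Hochberg), so *Ifng* did not pass over all genes. The exact permutation test gave p = 0.0159.

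Levels of *Ifng* and *Ido1* were out of step in some mice. ceAF-3 had 0.823 CPM of *Ifng* and 134 CPM of *Ido1*, while DSS-1 had 2.26 CPM of *Ifng* and 53.8 CPM of *Ido1*. Whether the difference between the groups in *Ifng* is larger than that in *Ido1* was not tested. The 8 T-cell markers summed to 87.2, 47.3, 47.8, 53.9 and 21.7 CPM in DSS-1 to DSS-5 and to 18.4, 39.6, 37.2, 18.2 and 26.3 CPM in ceAF-1 to ceAF-5. DSS-5, the lowest DSS mouse in *Ifng*, was also the lowest in these markers, and the other DSS mice lay above all ceAF mice. Of the 8 markers 8 were lower in the ceAF group, 5 at an unadjusted p under 0.05 (3 without both DSS-1 and ceAF-1), *Cd2* was the most abundant with a mean of 3.46 FPKM, and 0 were at 0 in all mice. The part of T-cell number in the level of *Ifng* was not tested.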

How the data were processed

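RNA-seq counts of 5 DSS and 5 ceAF mice were used, grouped by their labels. The authors deposited a whole-number count per gene and mouse, without normalization, and beside it the FPKM, which equals the count scaled by exonic length and library total to within 0.01 in 100% of values. The submitters' processing notes name cutadapt 1.9.1 and HISAT2 2.2.1. The counting program, the genome build, the use of strand and the handling of reads shared by paralogs are not given in the sources used here. Positions stand as deposited and differ from GENCODE M21 of GRCm38 for all 9 genes.

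Genes were kept by filterByExpr (minimum count 10), scaled by TMM and compared with the two-sided quasi-likelihood test of edgeR 4.0.16 in R 4.3.3, with Benjamini-Hochberg adjustment over all genes kept. *Cyp1a1* and *Cyp1b1* were fitted without the filter and have no adjusted p. Log2 CPM had a prior count of 1. Alternatives used other normalizations and filters, a robust fit, DESeq2 1.42.0, voom and limma-trend on FPKM (limma 3.58.1), a replicate block, and leaving out each mouse. Figures were drawn with matplotlib 3.10.9.

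The members and lists were chosen with earlier results of these data known. Named were the members, the genes of each pathway list at an unadjusted p under 0.05 with the 2 most abundant, the most abundant gene of each marker list used, and the 3 genes most similar to each tested member whose log2 CPM spanned at least 2, leaving out predicted genes and receptor or immunoglobulin segments. *Nqo1*, *Il22*, *Fh1*, *Hoxb6*, *Hoxb7*, *Hoxb8*, *Dcn*, *Ret* and *Aadat* were named after their values were seen, as were the marker lists set beside a gene. So were *Fabp6*, *Sis*, *Zbtb46*, *Ccr7* and *Il7r*. The level of 1 gene under this rule is not reported here. The printed promoters leave out the bases after the start of transcription.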

Additional observations from a re-analysis of the deposited data

Results flagged for a closer look

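For 31 measures named in the text, the distance from the highest or lowest mouse of a group to the next mouse was set against the whole range of that group of 5. Of 62 such comparisons 14 passed the critical value of 0.71, where chance flags about 1 in 20 groups, and markers of the same mouse are not independent of each other. Some of the measures, among them *Il22*, *Dcn*, *Hoxb6*, *Hoxb7*, *Hoxb8* and the marker sums, were named after their values were seen. The count of 14 thus cannot be set against that chance rate. DSS-1 was far above the other DSS mice in *Cyp1b1* (gap over range 0.761), in *Dcn* (0.721) and in the summed fibroblast (0.936), macrophage (0.934) and neutrophil (0.898) markers. ceAF-4 was far above the other ceAF mice in *Cyp1b1* (0.872), with 10 counts. DSS-5 was far above the other DSS mice in *Gpr35* (0.885) and *Il22* (0.792), and DSS-2 in total counts (0.908). ceAF-1 was far above the other ceAF mice in *Hoxb6* (0.816), *Hoxb7* (0.797), *Hoxb8* (0.813) and the summed *Hox* genes of the proximal colon (0.790), and DSS-4 above the other DSS mice in the mitochondrial share (0.737). The cause was not tested in any of these.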

How the results depend on the processing

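In none of the alternatives tried did a tested member pass an adjusted p under 0.05, and their smallest adjusted p was 0.487, for *Ahr* with voom and sample quality weights. *Ido1*, *Tiparp*, *Gpr35*, *Cyp1a1* and *Cyp1b1* kept their direction throughout, except that *Cyp1a1* and *Cyp1b1* have no value under the stricter filter and none of their own without a filter, which is how they were fitted. The log2 fold change of *Kmo* was −0.0014 with DESeq2, and that of *Kynu* was 0.017 with voom. Leaving out both DSS-1 and ceAF-1, an alternative added after seeing the data, gave 0.26 for *Kynu* and 0.55 for *Kmo*, and voom gave 0.26 for *Kmo*. When a single mouse was dropped, the log2 fold change ranged from −0.013 to 0.15 for *Ahr*, −0.20 to 0.10 for *Ahrr*, −0.36 to 0.087 for *Kynu* and −0.26 to 0.31 for *Kmo*. *Ifng* was lower in all alternatives, from −2.39 to −1.02. The causes were not tested.

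The count of genes called by adjusted p went from 0 to 28 with DESeq2 and was 0 to 3 with a mouse left out. At an unadjusted p under 0.05 it went from 1146 to 2452 with voom and 1733 without a filter, where more genes were tested. It was 1269 with DESeq2, and 1009 and 990 on FPKM with pseudocounts of 1 and 0.1. Without both DSS-1 and ceAF-1 it was 1449, and with a mouse left out 712 to 1872. The count of pathway genes at that limit went from 1 to 4 with DESeq2, 4 with voom, 5 without a filter, 3 and 2 on FPKM with pseudocounts of 1 and 0.1, 6 without both DSS-1 and ceAF-1, and 1 to 5 with a mouse left out. With the replicate block, 694 genes and 2 pathway genes were under an unadjusted p of 0.05 and 0 were called by adjusted p. Mice of the same number deviated from their group means with correlations of −0.249 to 0.286. The labels name no pairing, and these correlations cannot exclude one. With the replicate block the log2 fold change of *Ido1* was −0.74 (standard error 0.321). Its unadjusted p of 0.054 in the quasi-likelihood test was the smallest of the tested members in any alternative, and its adjusted p was 0.972. Among the 9 genes, depth limits *Cyp1a1*, *Cyp1b1*, *Ahrr*, *Kynu* and *Kmo* most, with at most 5, 22, 37, 45 and 87 counts per mouse.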
